A study of Homo sapiens with 4 samples.

Results

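PHGDH, PSAT1, PSPH, SHMT1, SHMT2, MTHFD1, MTHFD2, MTHFD1L and ALDH1L2 code for enzymes of serine synthesis and of the folate reactions that serine feeds. These 9 genes were taken by name from the 58735 genes listed for each library, by a rule that uses no measured value. The set itself, however, was chosen with earlier results of these data known. The RNA came from U251 and U87 cells, a pair of established lines derived from human glioblastoma (GBM). Both lines had 1 Control library and 1 library after 48 h of brusatol (Bru), a compound from Brucea seeds that was dissolved in DMSO and given at its IC50. The doses for sequencing are not stated, and the paper's viability assays over time used a higher dose in U251 than in U87. Line and dose thus cannot be told apart in any difference between the lines. With 4 libraries, 1 per condition and line, no difference below has a replicate check.

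The serine pathway starts from 3-phosphoglycerate, an intermediate of glycolysis. PHGDH oxidises it, PSAT1 transfers an amino group to the product, and PSPH removes the phosphate to give serine. The serine hydroxymethyltransferases SHMT1, in the cytosol, and SHMT2, in mitochondria, then pass a carbon from serine to tetrahydrofolate and leave glycine. Mitochondrial MTHFD2 and MTHFD1L turn that carbon into formate, cytosolic MTHFD1 takes formate back into folate for purine and thymidylate synthesis, and mitochondrial ALDH1L2 oxidises formyl-folate to CO2 with NADPH as the other product. The transcription factor ATF4 is known to drive several of these genes when amino acids are short, and proliferating tumour cells, gliomas among them, often use the pathway heavily.

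The recovered reads on genes (fragments counted per gene, worked back from the FPKM) added up to between 17083896 and 21453561 per library. FPKM is the number of fragments scaled to gene length and library size, and a gene of 1 kilobase with 3 reads had an FPKM of 0.143 to 0.172. The library size inside the FPKM differed from the total of the recovered reads. In U251 it was 20974002 against 21453561 in Control and 18533374 against 17847910 in Bru. Markers of glioma lines were checked first. VIM and CD44 were abundant in every library, whereas SOX2 stood at 129 FPKM in the U251 Control library with 0 reads in its U87 counterpart, NES at 125 and 1.46 FPKM, and GFAP at 2.42 and 0.215 FPKM. OLIG2 was low in both and higher in U87, with 2 reads (0.0284 FPKM) in the U251 Control library and 38 reads (0.627 FPKM) in that of U87. Of the 9 markers of other cell types, only SNAP25 had a mean FPKM of at least 1, and the summed FPKM was 1.77 to 7.56 per library. Ratios of Bru to Control are given as log2 ratios, with a 95% exact interval from the reads that covers counting error only and compares libraries, not conditions. In RNA from a whole culture, fewer cells with a high level and less RNA per cell cannot be told apart.

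Promoters of 6 of the 9 genes were in the RefSeq table (GRCh38.p14, 250 bases before to 50 bases after the start), all but those of PSPH, SHMT2 and ALDH1L2. The windows were searched on both strands for TGATGNAA, the C/EBP-ATF response element through which ATF4 can act, and for the E-box CACGTG. TGATGNAA was in 3.67% of all 27305 windows and, of the 6 genes, in that of MTHFD1L. CACGTG was in 7.43% of all windows and in those of MTHFD1 and MTHFD1L. CCAAT, a letter string searched only after the sequences had been read, was in all 6 windows and in 35.7% of all windows. The windows of PHGDH, PSAT1, SHMT1 and MTHFD2 held neither of the first 2 motifs. Below are shown the match in MTHFD1L, the gene with the highest log2 ratio of the 9 in U251, and the 250 bases before the start of PSAT1, the gene whose ratio had opposite signs in the 2 lines. Capitals mark the match to TGATGNAA in the first sequence and CCAAT in the second. The first, at chr6:150866346-150866375 on the plus strand, lies within a GENCODE exon, and the second, at chr9:78296875-78297124 on the plus strand, touches none.
MTHFD1L: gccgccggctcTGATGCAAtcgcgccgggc
PSAT1: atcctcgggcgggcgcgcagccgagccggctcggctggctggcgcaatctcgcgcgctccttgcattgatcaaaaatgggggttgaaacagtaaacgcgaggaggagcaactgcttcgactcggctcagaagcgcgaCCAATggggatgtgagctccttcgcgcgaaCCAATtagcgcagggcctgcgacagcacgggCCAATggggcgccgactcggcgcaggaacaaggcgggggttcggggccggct

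The 3 genes of serine synthesis were lower in the Bru library of U251 and nearly level or higher in that of U87. Gene coordinates are those in the files, which are on GRCh38. PHGDH (ENSG00000092621, chromosome 1 from 119648411 to 119744226, plus strand), the first enzyme of the pathway, stood at 49.8 FPKM in Control and 30.8 in Bru for U251, and at 8.78 and 8.55 for U87. Both U251 libraries thus lay above both U87 libraries. Its log2 ratio of Bru to Control was -0.69 in U251 (interval from -0.74 to -0.65, 9635 and 5263 reads), a level 1.62-fold lower. In U87 it was -0.04 (from -0.15 to 0.07), within counting error of 0. PSPH (ENSG00000146733, chromosome 7 from 56011051 to 56051604, minus strand), the phosphatase of the last step, stood at 23.1 FPKM in Control and 14.0 in Bru for U251, and at 17.3 and 16.5 for U87. Its U251 Bru library was the lowest of the 4. Its log2 ratio was -0.73 in U251 (from -0.86 to -0.60) and -0.06 in U87 (from -0.21 to 0.08).

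PSAT1 (ENSG00000135069, chromosome 9 from 78297143 to 78330093, plus strand), the aminotransferase of the middle step, went from 56.8 to 40.0 FPKM between Control and Bru of U251, and from 30.2 to 35.7 FPKM in U87. It was lower in Bru in U251 and higher in Bru in U87. The log2 ratios were -0.50 (from -0.59 to -0.41) and 0.24 (from 0.13 to 0.35), and the ratio in U87 was above that in U251 by 0.75 on the log2 scale (from 0.60 to 0.89). For PHGDH the same difference was 0.66 (from 0.54 to 0.77) and for PSPH 0.66 (from 0.47 to 0.86). These 3 differences lay at percentiles 89.2 to 91.3 of all 12949 genes whose mean level reached 1 FPKM, on FPKM + 0.1, and whether they exceed the spread between replicates was not tested. The ratio was above its U251 value in U87 for 7 of the 8 genes over that filter, against 49.1% of all genes. For SHMT2 (0.04, from -0.06 to 0.15) and SHMT1 (0.13, from -0.04 to 0.30) the difference was within counting error of 0. None of the 8 differences passed 2-fold, against 8.49% of all genes. At 1.5-fold, a limit set after the values were seen, those of PHGDH, PSAT1 and PSPH passed upwards (12.8% of all genes) and none downwards (10.5%). MTHFD1L was the gene whose ratio was lower in U87 than in U251, by a difference of -0.24 (from -0.39 to -0.08). The annotation has no exon of another gene over those of PSAT1, PHGDH and PSPH, although 4.72% and 8.36% of the 50-base stretches of the main transcripts of PSAT1 and PSPH occur in other genes, and 0% of those of PHGDH. The pseudogenes named after PSAT1 and PSPH had 0 reads in all 4 libraries.

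**Figure D1:**
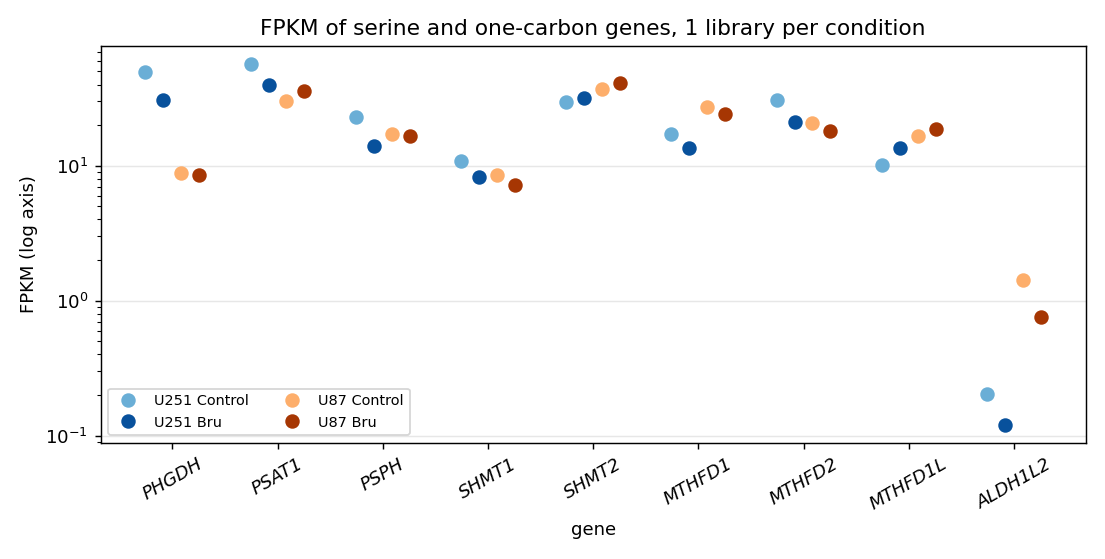
FPKM on a log axis of the 9 genes in the 4 libraries, 1 point per library and no error bar, since each condition has 1 library. PHGDH shows the widest gap between the lines among the 8 genes above the filter of 1 FPKM, from 49.8 in U251 Control to 8.78 in U87 Control.

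The hydroxymethyltransferase pair had ratios of opposite sign in both lines. SHMT2 (ENSG00000182199, chromosome 12 from 57229327 to 57234935, plus strand), the mitochondrial enzyme, read 29.7 FPKM in Control against 32.0 in Bru for U251, and 36.8 against 41.0 for U87. The Bru library was slightly above Control in each line, with log2 ratios of 0.11 (from 0.03 to 0.18) and 0.15 (from 0.08 to 0.22). Scaled by the total of the recovered reads, the U251 value was 0.20, above that interval. SHMT1 (ENSG00000176974, chromosome 17 from 18327860 to 18363563, minus strand), its cytosolic counterpart, read 10.8 FPKM in Control against 8.24 in Bru for U251, and 8.59 against 7.19 for U87. It was lower in Bru in each line, with log2 ratios of -0.39 (from -0.50 to -0.28) and -0.26 (from -0.38 to -0.13). The ratio of SHMT2 to SHMT1 within a library does not depend on the scaling between libraries. It was 2.75 in Control and 3.89 in Bru for U251, and 4.29 and 5.70 for U87. The value in Bru was 1.41 times that in Control for U251 (exact interval of the odds ratio from 1.29 to 1.55) and 1.33 times for U87 (from 1.20 to 1.47).

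MTHFD2 (ENSG00000065911, chromosome 2 from 74198562 to 74217565, plus strand), the mitochondrial dehydrogenase and cyclohydrolase, went from 30.8 to 21.0 FPKM between Control and Bru of U251, and from 20.9 to 18.2 FPKM in U87. The U251 Control library stood above the other three. The log2 ratio was -0.55 in U251 (from -0.63 to -0.47) and -0.20 in U87 (from -0.30 to -0.10). MTHFD1L (ENSG00000120254, chromosome 6 from 150865549 to 151101887, plus strand), which releases formate in the same organelle, went from 10.2 to 13.5 FPKM between Control and Bru of U251, and from 16.6 to 18.6 FPKM in U87. It was higher in Bru in each line, with log2 ratios of 0.40 (from 0.28 to 0.52) and 0.17 (from 0.06 to 0.27). The ratio of MTHFD2 to MTHFD1L, a pair chosen after the values were seen, went from 3.02 in Control to 1.56 in Bru in U251 and from 1.26 to 0.981 in U87. Consecutive steps of one mitochondrial route thus had opposite signs in both lines.

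MTHFD1 (ENSG00000100714, chromosome 14 from 64388031 to 64463457, plus strand), the cytosolic enzyme with 3 activities, stood at 17.1 FPKM in Control and 13.6 in Bru for U251, and at 27.1 and 24.3 for U87. It was lower in Bru in each line and higher in U87 than in U251 under either condition. The log2 ratios of Bru to Control were -0.33 (from -0.41 to -0.25) and -0.16 (from -0.22 to -0.09). The ratio of MTHFD1L to MTHFD1 in Bru was 1.66 times that in Control for U251 (from 1.51 to 1.83) and 1.25 times for U87 (from 1.15 to 1.36). For MTHFD2 against MTHFD1 this factor was 0.858 in U251 (from 0.793 to 0.928) and 0.970 in U87 (from 0.894 to 1.05).

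ALDH1L2 (ENSG00000136010, chromosome 12 from 105019784 to 105084577, minus strand) was the only gene of the 9 under the filter, with a mean FPKM of 0.627. For U251 it stood at 0.202 FPKM (36 reads) in Control and 0.121 FPKM (19 reads) in Bru. For U87 it stood at 1.43 FPKM (220 reads) and 0.756 FPKM (112 reads). Both U87 libraries were above both U251 libraries, and Bru was below Control in each line. In U251 the log2 ratio was -0.74, and its interval from -1.63 to 0.10 included 0, so that 36 and 19 reads do not show a difference. In U87 it was -0.92 (from -1.26 to -0.59), a level 1.89-fold lower. With the pseudocount of 0.1, which understates ratios at this level, these values became -0.45 and -0.84.

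None of the 8 genes above the filter passed 2-fold in either line. Among all 12949 such genes, 8.80% passed it in U251 (3.36% higher and 5.44% lower in Bru) and 3.34% in U87 (1.92% higher and 1.41% lower). In U251, 38.2% of the genes past 2-fold were higher in Bru, a share that became 48.8% with scaling to the 75th percentile and 48.9% with scaling by the total reads. In U87 that share was 57.6%, and it became 33.3% among protein-coding genes and 45.8% with the filter at 5 FPKM. At 1.5-fold, PHGDH and PSPH were lower in U251, 2 of 8 against 15.6% of all genes, and none of the 8 was higher, against 11.3%. In U87 none of the 8 passed 1.5-fold, against 4.56% of all genes higher and 4.49% lower. In U251, 6 of the 8 were below 0 against 52.1% of all genes, and their median log2 ratio was -0.44 against -0.03 for all genes. In U87, 5 of the 8 were below 0 against 56.7%, and the medians were -0.05 and -0.04. The lowest of the 8 in U251, PSPH, stood at percentile 11.1 of all genes and the highest, MTHFD1L, at percentile 80.9. In U87 the 8 spread from percentile 19.5 for SHMT1 to 85.5 for PSAT1.

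To ask what both lines shared, limma was fitted to log2(FPKM + 0.1) of all 12949 genes with the line as a block. The lines stand in for replicates here, so that the residual, with 1 degree of freedom before moderation, is the difference between the lines. No gene (0.00%) had an adjusted p under 0.05, and 1835 genes (14.2%) had an unadjusted p under 0.05, none of them among the 8. MTHFD2 had the lowest p of the 8, with a mean log2 ratio of -0.37 (SE 0.17) and an adjusted p of 0.385 by limma. PSPH followed with -0.39 (SE 0.20) and an adjusted p of 0.424 by limma. SHMT2, which was higher in Bru in both lines, had a mean of 0.13 (SE 0.16) and an adjusted p of 0.732, and MTHFD1L one of 0.28 (SE 0.17) and an adjusted p of 0.478 by limma. With limma-voom on the recovered reads, added after the data were seen, 396 genes were called, again without any of the 8, whose lowest adjusted p was 0.299, that of MTHFD1L.

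Among the 8 genes above the filter, the Control libraries of U251 and U87 differed most in the first step of serine synthesis. PHGDH was 5.68-fold lower in U87 Control than in U251 Control, a log2 ratio of -2.51 (from -2.59 to -2.43), at percentile 5.06 of all genes. It was the only one of the 8 past 2-fold, against 30.4% of all genes (14.5% higher and 16.0% lower). At 1.5-fold PSAT1 was also lower (26.8% of all genes), and MTHFD1 and MTHFD1L were higher (25.0%). PSAT1 was 1.88-fold lower in U87 (log2 ratio -0.91, from -1.01 to -0.81), MTHFD2 was 1.47-fold lower (-0.56, from -0.64 to -0.47) and PSPH was 1.34-fold lower (-0.42, from -0.55 to -0.30). SHMT1 was lower by a log2 ratio of -0.33 (from -0.44 to -0.22). In the other direction, MTHFD1L was 1.62-fold higher in U87 (0.70, from 0.58 to 0.81), MTHFD1 was 1.59-fold higher (0.67, from 0.60 to 0.73) and SHMT2 was 1.24-fold higher (0.31, from 0.24 to 0.38). ALDH1L2, under the filter, was 7.09-fold higher in U87 (2.83, from 2.31 to 3.38). The pair of Control libraries carries no replicate either.

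The FPKM summed over the 3 genes of serine synthesis were 130 in Control and 84.8 in Bru for U251, and 56.3 and 60.8 for U87. That was 56.8%, 48.9%, 33.6% and 35.6% of the sum over the 9 genes. SHMT1 and MTHFD1 together had 27.9 and 21.8 in U251, and 35.7 and 31.5 in U87. The mitochondrial genes SHMT2, MTHFD2, MTHFD1L and ALDH1L2 varied least, with sums of 70.9, 66.7, 75.7 and 78.5. Within that mitochondrial sum, SHMT2 and MTHFD1L were higher and MTHFD2 and ALDH1L2 lower in Bru in both lines. The total of the 9 genes was 229 in U251 Control and between 168 and 173 in the other libraries. These sums and shares depend on the gene lengths in the files, which were 3.57 times the main transcript for PHGDH and 1 times for PSAT1.

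**Figure D2:**
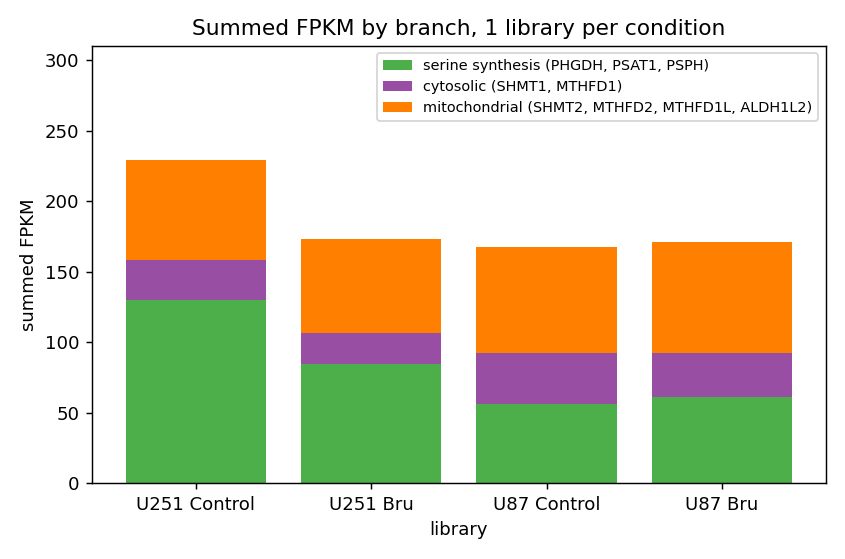
Stacked bars give the FPKM, at the gene lengths in the files, summed over the genes of each branch in each library, with no error since there is 1 library per condition. The serine synthesis part goes from 130 in U251 Control to 84.8 in U251 Bru, and is 56.3 and 60.8 in U87.

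The order of the genes by level depended on the line and on the length used. By FPKM as deposited, PSAT1 led in U251 Control, followed by PHGDH, MTHFD2, SHMT2, PSPH, MTHFD1, SHMT1, MTHFD1L and ALDH1L2. The pairs MTHFD2 and SHMT2, and SHMT1 and MTHFD1L, did not differ beyond counting error there. In U87 Control the order was SHMT2, PSAT1, MTHFD1, MTHFD2, PSPH, MTHFD1L, PHGDH, SHMT1 and ALDH1L2, and neither PSPH and MTHFD1L nor PHGDH and SHMT1 differed beyond counting error. In U251 Bru PSAT1 still led, SHMT2 and PHGDH did not differ beyond counting error, and neither did the neighbours PSPH, MTHFD1 and MTHFD1L. In U87 Bru SHMT2 led again, and MTHFD1L and MTHFD2 did not differ beyond counting error.

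The lengths in the files were those of all annotated exons of a gene joined together. PHGDH, with 34 transcripts, had a length of 9217 bases, which is 3.57 times the 2585 bases of its main coding transcript in GENCODE release 29. The same factor was 2.99 for MTHFD1, 2.95 for SHMT1, 1.91 for SHMT2 and 1 for PSAT1. Per kilobase of the main transcript, a choice made after the data were seen, PHGDH had 178 in U251 Control against 56.8 for PSAT1 and 56.6 for SHMT2. In U87 Control MTHFD1 led with 81.1, before SHMT2 with 70.2 and PHGDH with 31.3. The ratio of MTHFD2 to MTHFD1 in U251 Control was 1.80 with the lengths in the files (from 1.72 to 1.89) and 0.659 with those of the main transcripts. A gene's own ratio between libraries does not change with its length.

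**Figure D3:**
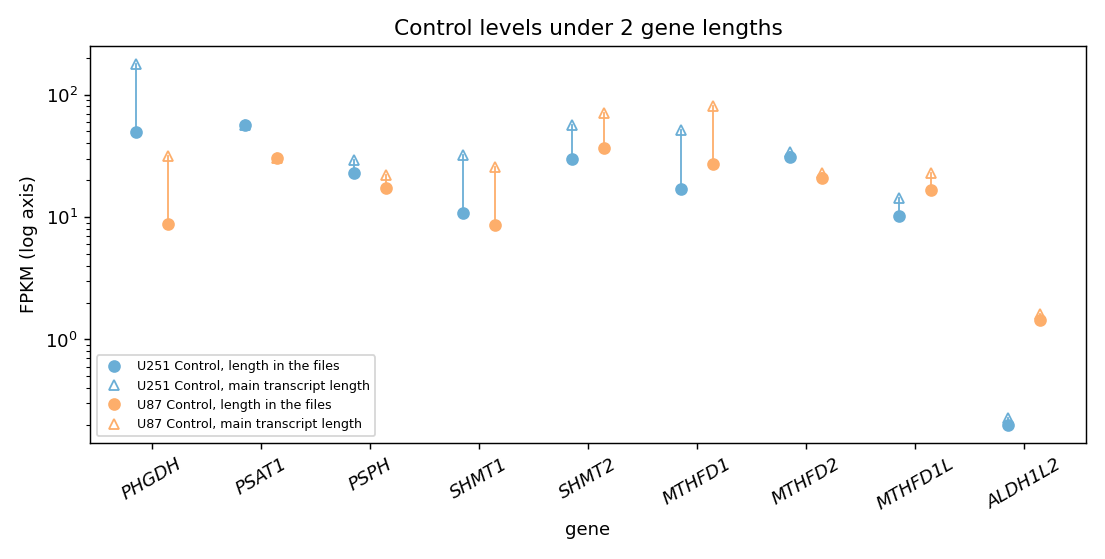
FPKM on a log axis in both Control libraries with the gene lengths in the files (filled circles) and with the length of the main coding transcript (open triangles), 1 library per point and no error bar. For PHGDH in the U251 Control library the values are 49.8 and 178, and for PSAT1 both are 56.8.

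The library kit is not stated to keep the strand, so reads of a gene and of an overlapping gene on the other strand cannot be told apart. Exons of other genes covered 33.2% of the exonic bases of MTHFD2, most of them exons of SLC4A5 on the other strand, which had between 2 and 12 reads in a library. The share was 11% for MTHFD1, 9.51% for SHMT2, 3.69% for SHMT1 and 1.7% for ALDH1L2. SMCR8, which overlaps SHMT1, had 1271 reads in Control and 2207 in Bru for U251, and 1379 and 1857 for U87. C12orf45, which overlaps ALDH1L2, had 260 and 510 reads for U251, and 378 and 450 for U87. Both neighbours thus had more reads in Bru, where SHMT1 and ALDH1L2 had fewer. Of 50-base stretches of the main transcript, 35.7% occurred in another gene for MTHFD2, 15.2% for MTHFD1, 10.7% for SHMT2 and 8.16% for SHMT1. Pseudogenes named after one of the 9 genes had at most 4 reads in a library, and ARL4AP5 and AL133260.1, a pair of pseudogenes that overlap MTHFD1L, at most 10. Levels of MTHFD2 and MTHFD1 are uncertain to that extent, and the part of shared reads in their ratios was not tested.

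Of 17 other genes of folate uptake and turnover, 9 had a mean FPKM of at least 1. In U251, 4 were higher and 5 lower in Bru, 1 of them past 2-fold, and their median log2 ratio was 0.00. In U87, 5 were higher and 4 lower, none past 2-fold. GGH, the hydrolase that trims folate polyglutamates, went from 54.7 to 20.1 FPKM in U251, a log2 ratio of -1.44, and had one of -0.43 in U87. SLC19A1, the reduced folate carrier, had log2 ratios of -0.78 and -0.23. TYMS, which makes thymidylate with a folate carbon and was named after its values were seen, had log2 ratios of -0.90 and 0.05. TYMS was thus lower in the U251 Bru library and nearly level in U87, as PHGDH and PSPH were.

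The 18 genes of S phase and mitosis were all lower in U251 Bru, with a median log2 ratio of -0.86 and 15 of them lower by more than 1.5-fold (15.6% of all genes), and 15 of the 18 were lower in U87, with a median of -0.18. MKI67, a marker of cycling cells, had log2 ratios of -1.11 and -0.12, TK1 had -1.11 and -0.35, and the helicase subunits MCM6 and MCM5 had -1.02 and -0.35, and -0.93 and -0.40. The genes nearest to PSPH, the gene of the 9 with the largest mean absolute ratio above the filter, were sought over 3 log2 contrasts among 4544 protein-coding genes that averaged 10 FPKM or more. They were NCAPG (distance 0.05), DLGAP5 (0.06) and MCM10 (0.06). For NCAPG these contrasts were -0.68 (U251), -0.04 (U87) and -0.40 (U87 Control over U251 Control). This likeness rests on 3 differences among 4 libraries. The search always returns the 3 nearest genes and was run for PSPH alone. How many other genes lay nearly as close, and what share of them belong to the cell cycle, was not counted. The part of cell cycle genes in the ratios above was not tested.

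Genes around serine and its carbon were mixed. Of 17 genes of serine transport and use, 15 passed the filter, 10 of them lower in Bru in U251 and 10 in U87, with medians of -0.35 and -0.12. Past 2-fold in U251 were 3 genes lower in Bru (5.44% of all genes) and 1 higher (3.36%), namely SLC1A4, a neutral amino acid transporter that carries serine (-1.43, and -0.77 in U87), SFXN2, a sideroflexin (-1.36, and -0.12), SPTLC2, a subunit of serine palmitoyltransferase (-1.14, and -0.40), and SDSL, a serine dehydratase-like gene (1.49, and 0.16). No gene of this list passed 2-fold in U87. All 6 genes of purine synthesis passed the filter, with medians of 0.04 and 0.05, and none passed 2-fold. ATIC, which uses formyl-folate in that pathway, had log2 ratios of 0.65 and -0.05, ADSL had 0.13 and 0.33, and PFAS had 0.12 and 0.09. Of the methionine cycle and transsulfuration, 8 of 13 genes passed the filter, with medians of -0.16 and 0.00 and none past 2-fold. MTR, the folate-dependent methionine synthase, had log2 ratios of -0.52 and -0.11, CTH had -0.26 and 0.36, and MAT2A had -0.34 and -0.18. Of the glycine cleavage system, GCSH had log2 ratios of -0.40 and -0.91 and DLD had 0.25 and -0.09, while GLDC and AMT were under the filter.

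Of 21 genes of the ATF4 and stress response, ATF4 among them and the 9 genes left out, 20 passed the filter. In U251, 8 were higher and 12 lower in Bru, with 3 past 2-fold upwards (3.36% of all genes), 0 downwards (5.44%) and a median log2 ratio of -0.22, against -0.03 for all genes. In U87, 12 were higher and 8 lower, with 1 past 2-fold upwards (1.92% of all genes) and a median of 0.07, against -0.04 for all genes. The genes past 2-fold were DDIT3, a transcription factor of the stress response (1.91 in U251 and 0.85 in U87), SLC3A2, the heavy chain of amino acid transporters (1.69 and 0.60), ATF5 (1.08 and 0.43) and ATF3 (0.20 and 1.54). ATF4 itself, named after its values were seen, stood at 109 FPKM in Control and 168 in Bru for U251, and at 39.4 and 61.1 for U87, which is a log2 ratio of 0.63 in each line. The part of ATF4 in the ratios of the 9 genes was not tested.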

How the data were processed

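The authors deposited FPKM per gene for 4 libraries, 1 per line and condition, with the gene lengths used. Processing notes of the submitters (the authors' labels) name HISAT2 2.0.5, StringTie 1.3.3b, featureCounts 1.5.0-p3, DESeq2 1.16.1 and hg18, with no role given, whereas the coordinates of all 58735 genes equal those of GENCODE release 29 on GRCh38. Strand setting and treatment of shared reads are not given in the sources used here. FPKM multiplied by length was a whole multiple of 1 step for 100% of values above 0 (tolerance 0.01 reads), which gave reads and library sizes. Log2 ratios of the 9 genes given with an interval used FPKM without a pseudocount. Percentiles, medians, counts past a fold limit and ratios of other genes used FPKM + 0.1. They were kept for genes whose mean over the libraries reached 1 FPKM. Intervals were exact (Clopper-Pearson for ratios, conditional odds ratios for differences). What both lines shared was tested by limma 3.58.1 with Benjamini-Hochberg adjustment. In simulated data for that fit, 176 of 200 genes changed 4-fold among 12949 were called, with 6 unchanged ones. Those data had a coefficient of variation of 0.1 and the same change in both lines, so the lines did not differ in their response. The simulation does not show how often changes under 2-fold, such as those of the 9 genes, would be called. The genes and lists were chosen with earlier results of these data known. Named beyond the 9 genes are, per list, those past 2-fold and the 3 with the largest mean absolute ratio, the 3 nearest in pattern, and pseudogenes and overlapping genes of the 9, of which some are not reported here. Alternatives were other pseudocounts, scalings and filters, protein-coding genes only and no block, and, chosen after seeing the data, scaling by total reads, limma-voom and main-transcript lengths. Total RNA was extracted, and no molecular identifiers are named, so intervals cover counting error only.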

Additional observations from a re-analysis of the deposited data

Results flagged for a closer look

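PSAT1 moved in opposite directions in the lines, lower in the single U251 Bru library and higher in the single U87 Bru library, with both counting intervals away from 0. The log2 ratio in U87 exceeded that in U251 by 0.75 (exact counting interval from 0.60 to 0.89). The difference was not tested against replicate error, since each condition has 1 library.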

How the results depend on the processing

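No replicate could be left out, since each condition has 1 library, and the edgeR test planned on the recovered reads was not run, with limma-voom on the same reads in its place. Over 7 alternatives of pseudocount and scaling, 126 recomputed log2 ratios of the 9 genes gave 0 changes of sign of a ratio whose interval excluded 0. Of these, 9 moved by more than the counting error, by at most 0.37 (ALDH1L2 with a pseudocount of 1, which gave -0.47 in U87). The others were U251 ratios of PHGDH, SHMT2, MTHFD1 and MTHFD2 with scaling to the 75th percentile or by total reads. By total reads, they were -0.61 for PHGDH, 0.20 for SHMT2, -0.24 for MTHFD1 and -0.46 for MTHFD2. Counting intervals do not cover this dependence on scaling. The median of the 8 genes stayed between -0.46 and -0.36 in U251 and went from -0.05 to 0.01 in U87 with scaling to the 75th percentile. The number of all genes past 2-fold in U251 and U87 was 616 and 190 with a pseudocount of 1, 4963 and 4335 without a filter, 3727 and 2801 with the filter at 0.1 FPKM, 473 and 83 at 5 FPKM, and 700 and 96 among protein-coding genes, against 1140 and 432. The genes limma called for both lines numbered 20 with a pseudocount of 1, 132 with the filter at 5 FPKM and 396 with voom, against 0, and none was among the 8. The labels give no replicate numbers, and the pairing in the fit is that of Bru with Control within a line. Without this block, limma called 0 genes, with 83 instead of 1835 at an unadjusted p under 0.05. The cause of the shifts was not tested, other than that each filter leaves fewer or more genes. With 4 libraries, 1 per condition and line, the intervals cover counting error only, and any further error of a ratio was not measured. ALDH1L2 in U251 rests on 36 and 19 reads.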
